A study of Mus musculus with 8 samples.

Results

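Cxcl9 macrophages are macrophage barcodes of the mouse submandibular gland and its draining lymph nodes that carry messenger RNA of the chemokine gene Cxcl9. A droplet barcode stands for about 1 cell, and a UMI (unique molecular identifier) counts 1 captured RNA molecule. Barcodes below 500 UMIs or 300 detected genes, or with over 10% of UMIs from mitochondrial genes, were left out. It was called a macrophage with at least 10 UMIs of the complement genes C1qa, C1qb and C1qc together, at least 1 UMI of Csf1r, and no UMI of Cd3d, Cd3e, Cd3g or Cd79a. A Cxcl9 macrophage had at least 1 UMI of Cxcl9 as well. Of 25172 kept barcodes in all, 260 met the rule. Library C1 held 50 of them, library C2 held 201 and library C3 held 9, while library C4 had none, and 0 of 5957 allows a share of up to 0.0504%. Values are given for C1 and C2, the libraries with at least 20 such barcodes. The levels of C1q, Csf1r, Cd3, Cd79a and Cxcl9 chose the barcodes, so they are given as description only.

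The study used SS mice and control mice, 4 of each and about 12 weeks of age, and sorted cells of both tissues that were positive for CD45, the surface protein of leukocytes. Per the labels' protocols the glands were digested with collagenase and the lymph nodes triturated. The labels do not spell out SS, and they name no strain, allele or treatment. They list 4 expression samples, which are control gland, SS gland, SS lymph nodes and control lymph nodes, and 4 receptor samples that were not used here. No label ties C1, C2, C3 or C4 to one of these samples, so nothing below compares SS with control mice or gland with lymph node. Each library is a single sample, no difference has a replicate check, and no test was made. Intervals in parentheses are exact 95% intervals for counting error only.

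CXCL9 is a secreted chemokine that draws T cells and NK cells through the receptor CXCR3. Macrophages make it when interferon gamma, released mainly by T cells and NK cells, acts on its receptor. The same signal raises guanylate binding proteins and immunity-related GTPases, which act against microbes inside the cell, as well as antigen presentation genes and the checkpoint ligand PD-L1. C1q and the receptor of the growth factor CSF1, encoded by Csf1r, mark tissue macrophages.

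Cxcl9 lies on mouse chromosome 5 from 92321331 to 92328079 on GRCm38, the assembly behind mm10, and Cxcl10, which encodes another CXCR3 ligand, lies near it from 92346638 to 92348889. The RefSeq promoter windows of these chemokine genes and of the guanylate binding protein genes Gbp2 and Gbp5 are printed here. Cxcl9 chose the barcodes, and the other genes belong to the interferon gamma response list described below. The windows run 5′ to 3′ on the strand of the gene, from 250 bases before the start to 50 bases after it. They are chr5:92328030-92328329 (minus strand), chr5:92348840-92349139 (minus strand), chr3:142620413-142620712 (plus strand) and chr3:142496684-142496983 (plus strand) on GRCm38.p6. Capitals mark matches on either strand to 3 motifs: GAS, the interferon gamma activated site, as TTCNNNGAA; the core of the ISRE, the site of interferon regulatory factors, as GAAA and GAAA with any 2 bases between; and kappa B, the site of NF-kappa B, as GGG and CC with any 5 bases between.
Cxcl9: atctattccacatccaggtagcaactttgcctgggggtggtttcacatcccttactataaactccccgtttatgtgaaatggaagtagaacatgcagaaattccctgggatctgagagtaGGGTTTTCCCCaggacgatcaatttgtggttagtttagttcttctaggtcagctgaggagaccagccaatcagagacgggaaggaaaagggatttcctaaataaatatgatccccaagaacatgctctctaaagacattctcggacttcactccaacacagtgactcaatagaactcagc
Cxcl10: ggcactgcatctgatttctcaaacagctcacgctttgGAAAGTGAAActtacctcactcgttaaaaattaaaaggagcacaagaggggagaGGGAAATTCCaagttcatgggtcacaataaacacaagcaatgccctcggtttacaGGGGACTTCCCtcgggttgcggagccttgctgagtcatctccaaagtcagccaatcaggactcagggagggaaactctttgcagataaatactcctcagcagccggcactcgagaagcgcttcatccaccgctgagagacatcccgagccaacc
Gbp2: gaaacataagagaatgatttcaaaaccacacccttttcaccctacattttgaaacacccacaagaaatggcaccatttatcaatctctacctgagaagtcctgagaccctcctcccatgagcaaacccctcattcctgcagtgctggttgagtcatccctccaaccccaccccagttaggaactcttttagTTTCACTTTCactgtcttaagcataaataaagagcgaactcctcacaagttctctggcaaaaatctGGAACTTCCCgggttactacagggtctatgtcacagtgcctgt
Gbp5: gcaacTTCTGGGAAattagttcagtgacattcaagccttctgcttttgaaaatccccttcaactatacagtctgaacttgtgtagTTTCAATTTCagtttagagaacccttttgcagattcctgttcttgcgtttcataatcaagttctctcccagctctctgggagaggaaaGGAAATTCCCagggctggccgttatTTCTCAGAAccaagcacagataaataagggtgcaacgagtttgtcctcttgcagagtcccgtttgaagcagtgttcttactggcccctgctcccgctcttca

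The Cxcl9 window holds a pair of overlapping kappa B matches that begin 130 and 129 bases before the start. The Cxcl10 window holds an ISRE core 213 bases before the start and kappa B matches at 159, 104 and 103 bases, of which the last 2 overlap. The Gbp2 window holds an ISRE core 59 bases before the start and a kappa B match at base 8 of the transcript. The Gbp5 window holds GAS matches 245 and 52 bases before the start, an ISRE core at 165 bases and a kappa B match at 77 bases. Over all 32851 RefSeq promoter windows of this length, 8.3% hold the GAS letters, 3.44% the ISRE core and 50.8% kappa B. Of the 36 genes of the interferon gamma response list described below, 24 matched 29 windows, of which 34.5% hold GAS, 48.3% the ISRE core and 62.1% kappa B. For the type I interferon list, 22 of 30 genes matched 26 windows, and the shares were 15.4%, 50% and 57.7%. GAS was thus found in a larger share of the first list's windows, 10 of 29 against 4 of 26, small counts for which no interval was made. The ISRE core was found in close to the same share of both. A match is a description of the letters, not a measured binding site, and the sites were not tested.

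Cxcl9 was found in a small share of the macrophages of C1 and in most of those of C2. In C1, 50 of 2444 macrophages had a Cxcl9 UMI, or 2.05% (1.52 to 2.69%). In C2 it was 201 of 326, or 61.7% (56.1 to 67%). C3 had 9 Cxcl9 macrophages among 13 macrophages and C4 had 0 with 1 macrophage, too few for a share. After each macrophage was thinned to 5259 UMIs, leaving out 699 shallower barcodes in C1 and 50 in C2, the shares were 2.12% (1.5 to 2.91%) and 58% (51.9 to 63.9%). The libraries thus also lay far apart at equal depth. As a share of all kept barcodes, Cxcl9 macrophages stood at 0.89% (0.662 to 1.17%) in C1. The same share was 3.97% (3.45 to 4.54%) in C2 and 0.105% (0.0482 to 0.2%) in C3.

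Cxcl9 was also read in T cell barcodes, as a rough guide to free RNA in the droplets. A Cxcl9 UMI was found in 0.22% of T cell barcodes in C1 (0.0267 to 0.793%, median depth 6000.5 UMIs) and in 1.56% in C2 (1.18 to 2.02%, median depth 4923.0 UMIs). The 55 T cell barcodes of C2 with Cxcl9 held 342 UMIs of it, more than 1 each on average. The parts of free RNA, doublets and expression in them were not tested. Low-UMI barcodes, with at least 50 and under 200 UMIs and mostly free RNA, carried Cxcl9 at 1.82 CPM (UMIs per 1000000 UMIs of the set) in C1 and 77.8 CPM in C2. In the 36 Cxcl9 macrophages of C2 with 1 UMI of it, Cxcl9 stood at 110 CPM (77.2 to 153). The macrophage shares above, 2.05% in C1 and 61.7% in C2, come from deeper barcodes than those of T cells. In C2 the median depth was 10553.0 UMIs in macrophages with Cxcl9 and 7750.0 in those without. The part of free RNA in the macrophage shares was not tested. With 10 to 14 C1q UMIs, just inside the threshold, 1 of 39 barcodes in C1 and 3 of 5 in C2 had Cxcl9, and with 5 to 9, just outside it, 0 of 49 and 5 of 12 did.

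The amount of Cxcl9 per barcode was uneven. In C1 the 50 Cxcl9 macrophages held 719 Cxcl9 UMIs, with a median of 2.0 per barcode and a highest value of 234, and 38% had only 1 UMI. In C2 the 201 held 4574 UMIs, with a median of 6.0 and a highest value of 218, and 17.9% had only 1. A few barcodes thus carried most of the transcript in C1, where the top 5 held 73.3% of the UMIs. In C2 the top 20 held 48.8%. Summed over barcodes, Cxcl9 stood at 1497 CPM (1389 to 1610) in C1 and 2083 CPM (2023 to 2145) in C2.

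**Figure D1:**
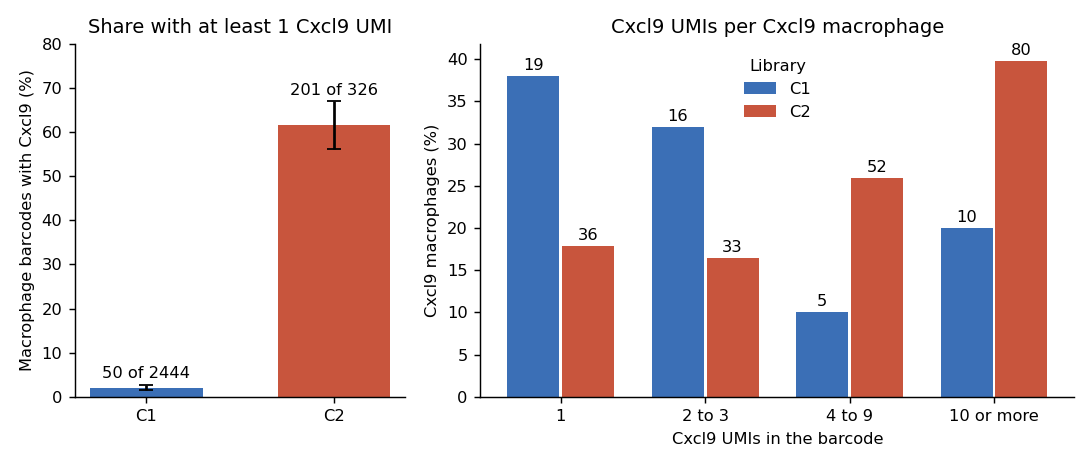
Left, percent of macrophage barcodes with at least 1 Cxcl9 UMI in libraries C1 and C2, with exact 95% binomial intervals for counting error as error bars and the counts above. Right, percent of the Cxcl9 macrophages of each library (bars, with the number of barcodes above) by their number of Cxcl9 UMIs. C2 has the higher share at 61.7% and most barcodes with 10 or more UMIs, 80 against 10 in C1.

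In C1, 2 of the 50 barcodes held all 27 UMIs of Ccr7, a receptor gene typical of dendritic cells that travel to lymph nodes, and these had 89 and 234 Cxcl9 UMIs, 44.9% of the Cxcl9 UMIs of that library. No Cxcl9 macrophage of C2 had Ccr7. Values of C1 are given without these 2 barcodes where they change by over 1.5 times. Without them Cxcl9 stood at 892 CPM (807 to 985) in the remaining 48.

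Macrophage genes were read next. C1q and Csf1r chose the macrophages, with or without Cxcl9, so their levels are description only. C1qa stood at 5695 CPM in Cxcl9 macrophages and 5324 CPM in other macrophages, those with no Cxcl9 UMI, of C1, and at 7516 and 7287 CPM in C2. Csf1r stood at 899 and 1105 CPM in C1 and at 793 and 980 CPM in C2. Of 17 macrophage identity genes, 17 had enough UMIs to be compared, that is at least 50 over both sets in each library. Of these, 0 were 1.5-fold higher and 1 was 1.5-fold lower in both libraries. Over all genes compared, 2.29% were higher in both and 1.12% lower. The list's median log2 ratio was -0.06 in C1 and 0.03 in C2. Adgre1, which encodes F4/80, was found in 88% of the Cxcl9 macrophages of C1 and 84.6% of those of C2. The Fc receptor gene Fcgr1 was found in 74% and 88.6%. Others of the list were found in fewer, Mertk in 4% and 11.9%, Itgam in 22% and 40.3%, and Maf in 32% and 29.4%. Flt3 and Zbtb46, which define conventional dendritic cells, were near 0 at 2.08 and 6.24 CPM in C1 and 1.37 and 1.37 CPM in C2. In C1 both were at 0 without the Ccr7 barcodes, where Siglech stood at 94.6 against 103 CPM and Batf3 at 54.1 against 54 CPM. The 12 dendritic cell genes summed to 1226 against 952 CPM in C1 and to 796 against 712 CPM in C2. Most of each sum was Bst2, which is also in the type I interferon list. Clec9a and Xcr1, of the same list, are given below. Ccl8, a chemokine gene given as a marker of these cells, was absent from most of them, since 6% of the Cxcl9 macrophages of C1 and 28.9% of those of C2 had a UMI of it.

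Genes of other cell types were also detected, and the largest contrast was that of the NK and cytotoxic list in C2, at 17.4-fold. The 12 T cell genes summed to 45.8 CPM (28.7 to 69.3) in Cxcl9 macrophages and 52.4 CPM in other macrophages of C1, and to 39.2 CPM (31.3 to 48.4) and 30.4 CPM in C2. The 11 NK and cytotoxic genes summed to 285 CPM (239 to 337) and 380 CPM in C1, and to 154 CPM (138 to 171) and 8.82 CPM (4.03 to 16.7) in C2. Xcl1, a chemokine gene of NK cells, made up 62.9 of the 154 CPM in C2, and 60.1% of its UMIs came from 1 barcode. The 10 B and plasma cell genes summed to 154 and 174 CPM in C1 and to 150 and 216 CPM in C2. The 20 salivary epithelium genes, abundant in free RNA, summed to 5857 and 8087 CPM in C1 and to 10614 and 9952 CPM in C2. Low-UMI barcodes carried the NK and cytotoxic list at 430 CPM in C1 and 490 CPM in C2. They carried the T cell list at 109 and 634 CPM. The parts of free RNA and of doublets in these genes were not tested. Barcodes with further T, B or NK genes (Trac, Trbc1, Trbc2, Cd79b, Ms4a1, Ncr1 or Klrb1c, but not Xcl1) were also left out as an alternative. The interferon gamma ratio described below was then 2.57 in C1 and 1.93 in C2.

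Cxcl9 macrophages had deeper barcodes than other macrophages of their library. The median was 8417.5 UMIs against 6525.0 in C1 and 10553.0 against 7750.0 in C2. Mitochondrial shares were close, at medians of 1.36% and 1.46% in C1 and 1.42% and 1.37% in C2. Doublet scores had medians of 0.0458 and 0.0476 in C1 and of 0.0556 and 0.044 in C2, where the caller marked no barcode and the scores cannot be relied on. The libraries shared between 31 and 85 kept barcodes pairwise, and no Cxcl9 macrophage barcode of one was a Cxcl9 macrophage in another.

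Genes induced by interferon gamma stood higher in Cxcl9 macrophages than in other macrophages of both libraries. Of 36 list genes other than Cxcl9, 35 were among the files' symbols and 29 could be compared. Of these, 17 were at least 1.5-fold higher in both C1 and C2 and 0 were lower in both, where 2.29% of all 6155 genes compared were higher in both and 1.12% lower in both. In C1 alone 9.11% of all genes were 1.5-fold higher and 10.6% lower, and in C2 alone 6.71% and 4.48%. The median log2 ratio of the list was 1.26 in C1 and 1.09 in C2, against 0.02 and 0.01 over all genes. Summed over the list, Cxcl9 macrophages of C1 stood at 4448 CPM (4262 to 4641) and other macrophages at 1870 CPM (1850 to 1890). In C2 the sums were 7602 CPM (7487 to 7718) and 4078 CPM (3955 to 4204). The ratio was 2.38 in C1, or 2.11 without the 2 Ccr7 barcodes, and 1.86 in C2. The other macrophages of C2 thus stood close to the Cxcl9 macrophages of C1 for this list. Without the Ccr7 barcodes, 15 of the 17 genes were still 1.5-fold higher in both libraries, and Serpina3g and Batf2, named here after their values were seen, were not.

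**Figure D2:**
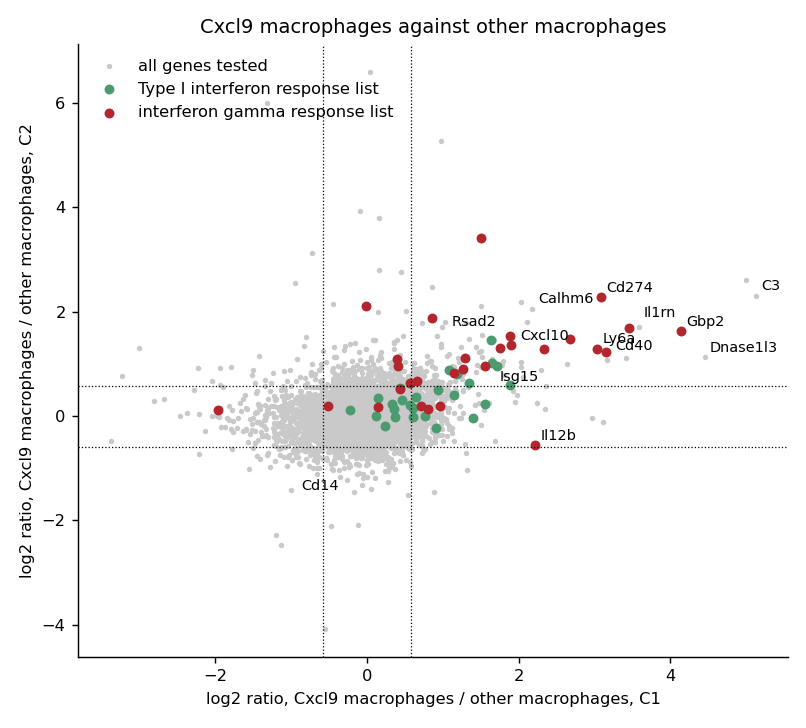
Each point is 1 of the 6155 genes compared, placed by the log2 ratio of its CPM in Cxcl9 macrophages over other macrophages in C1 (x axis) and C2 (y axis). Dotted lines mark 1.5-fold, and the interferon gamma response list (red) lies mostly in the upper right, with medians of 1.26 and 1.09.

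Cxcl10 stood at 960 CPM (874 to 1051) in Cxcl9 macrophages and 256 CPM (249 to 264) in other macrophages of C1, a ratio of 3.74. In C2 the levels were 651 CPM (618 to 686) and 253 CPM (223 to 286), a ratio of 2.57. Fewer than 1 in 2 Cxcl9 macrophages held a UMI of it, 46% in C1 and 48.3% in C2, against 26.7% and 29.6% of other macrophages. At equal depth these shares were 39.1% and 42.8% against 25.5% and 28.1%. The CXCR3 ligands Cxcl9 and Cxcl10 were therefore detected in overlapping but not identical sets of macrophages. Cxcl11, the other ligand gene of that receptor, was on the interferon gamma list but had no matching symbol in the data, so it has no values.

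Gbp2, which encodes a guanylate binding protein, stood at 200 CPM (162 to 244) against 11.3 CPM (9.79 to 13) in C1, a ratio of 17.7. In C2 it stood at 417 CPM (390 to 445) against 134 CPM (113 to 159), a ratio of 3.1. It was detected in 48% of Cxcl9 macrophages and 6.06% of other macrophages in C1, and in 76.1% and 44.8% in C2. At equal depth these shares were 45.7% and 4.59% in C1 and 63.3% and 37.5% in C2. The smaller ratio of C2 went with the higher level in its other macrophages, and the intervals of the sets did not overlap in either library. Gbp4 stood at 91.6 CPM against 27.1 CPM in C1 and at 147 CPM against 59.8 CPM in C2. Gbp5 stood at 39.5 CPM (23.8 to 61.8) against 7.85 CPM in C1, where 47.4% of its UMIs came from 1 barcode and it stood at 22.5 CPM without the Ccr7 barcodes. In C2 Gbp5 stood at 93.4 CPM (81 to 107) against 38.2 CPM (27.2 to 52.2). Ifi47, an immunity-related GTPase gene outside the list, stood at 99.9 CPM against 35.4 CPM in C1 and at 229 CPM against 97 CPM in C2.

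Of the 11 costimulation and checkpoint genes compared, 2 were 1.5-fold higher in both libraries, Cd274 and Cd40, against 2.29% of all genes compared. Cd274, which encodes PD-L1, stood at 60.4 CPM (40.4 to 86.7) against 7.16 CPM (5.96 to 8.54) in C1, a ratio of 8.43, and 41.4% of those UMIs came from 1 barcode. In C2 it stood at 95.2 CPM (82.7 to 109) against 19.6 CPM (12 to 30.3), a ratio of 4.86. A UMI was found in 18% against 3.84% in C1 and in 38.3% against 9.6% in C2 (at equal depth 13% against 2.71% and 29.4% against 4.17%), so most Cxcl9 macrophages of both libraries had none. Cd40, the receptor for CD40 ligand of helper T cells, stood at 148 CPM (115 to 186) against 13.4 CPM in C1, but 54.9% of those UMIs came from 1 barcode with Ccr7. Without the Ccr7 barcodes it stood at 60.8 CPM (40.1 to 88.5), a ratio of 4.53. In C2 Cd40 stood at 148 CPM (132 to 165) against 46.1 CPM (33.8 to 61.2), a ratio of 3.21. Cd86, a costimulatory ligand gene, stood at 614 against 463 CPM in C1 and at 523 against 538 CPM in C2, and Vsir, an inhibitory ligand gene, at 154 against 272 CPM and 252 against 278 CPM. The list's median log2 ratio was 0.35 in C1 and -0.04 in C2.

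The list of interferon receptors and signalling, of 14 genes, had a median log2 ratio of 0.07 in C1 and 0.01 in C2. Ifngr1, a chain of the interferon gamma receptor, stood lower in Cxcl9 macrophages, at 183 CPM (147 to 226) against 305 CPM (297 to 314) in C1 and 229 CPM (209 to 250) against 290 CPM (258 to 325) in C2. Fcgr4, an activating Fc receptor gene, stood at 248 CPM (205 to 296) against 112 CPM in C1 and at 637 CPM (604 to 672) against 359 CPM in C2. It was the 1 of 6 Fc receptor genes to be 1.5-fold higher in both, against 2.29% of all genes compared. Ly6a, a surface antigen gene, stood at 139 CPM against 17.1 CPM in C1, with 43.3% of its UMIs in 1 barcode, and at 1018 CPM against 417 CPM in C2. In C1 its level in other macrophages was below the 26.7 CPM of low-UMI barcodes, so a low level there cannot be told apart from free RNA. Irf8, a myeloid transcription factor gene, had ratios of 1.64 in C1 and 1.14 in C2, and without the Ccr7 barcodes it stood at 442 CPM in C1, a ratio of 1.08.

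**Figure D3:**
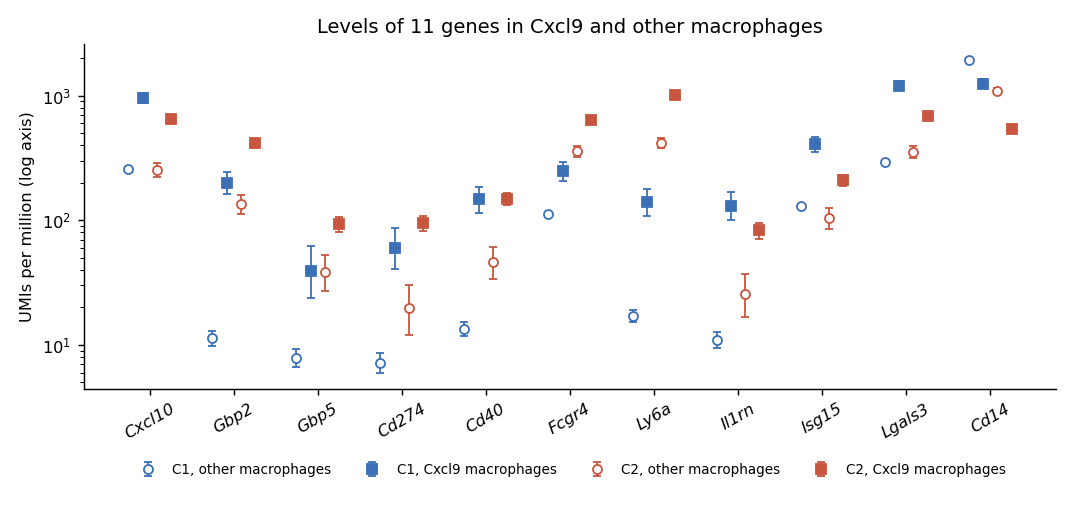
CPM (log axis) of 11 genes in other macrophages (open circles) and Cxcl9 macrophages (filled squares) of C1 (blue) and C2 (red), with exact 95% Poisson intervals for counting error. Of the genes drawn, Cd14 is the one with a lower level in Cxcl9 macrophages of both libraries, at 1247 against 1923 and 541 against 1086.

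Genes of the type I interferon response differed less, and more in C1 than in C2. Of 26 compared, 7 were 1.5-fold higher in both libraries, namely Isg15, Ifit1, Rsad2, Oasl1, Irf7, Usp18 and Zbp1, against 2.29% of all genes compared. The median log2 ratio was 0.70 in C1 and 0.28 in C2. The summed levels were 4673 CPM (4482 to 4870) against 2871 CPM (2845 to 2896) in C1 and 3370 CPM (3293 to 3447) against 2921 CPM (2817 to 3028) in C2. Isg15, a ubiquitin-like modifier gene, stood at 408 CPM (353 to 469) against 130 CPM in C1 and at 209 CPM (190 to 229) against 104 CPM in C2. Rsad2, which encodes the antiviral enzyme viperin, stood at 200 CPM (162 to 244) against 64 CPM in C1 and at 37.8 CPM (30.1 to 46.9) against 13.7 CPM in C2. In C1, 45.8% of its UMIs came from 1 barcode. Of the list genes that did not pass in both libraries, Ifi27l2a stood at 614 against 520 CPM in C1 and 683 against 778 CPM in C2, and Bst2 at 985 against 770 CPM and 611 against 557 CPM.

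Antigen presentation genes were read by class. The class II list, which loads peptides for CD4 T cells, had 0 of 12 genes past 1.5-fold in both libraries. This is near the share over all genes compared, of which 2.29% were higher in both. Its median log2 ratio was 0.12 in C1 and 0.10 in C2. It summed to 99834 CPM against 97257 CPM in C1 and to 118733 CPM against 117852 CPM in C2. H2-Aa stood at 15634 against 14566 CPM in C1 and 16621 against 16095 CPM in C2. Ifi30, a thiol reductase gene of the same list, had ratios of 1.95 in C1 and 1.44 in C2. The class I list, which presents to CD8 T cells, summed to 11519 CPM (11217 to 11826) against 8388 CPM (8344 to 8431) in C1 and to 15773 CPM (15607 to 15940) against 12978 CPM (12758 to 13201) in C2. There, 2 of 15 genes were past 1.5-fold in both libraries, with median log2 ratios of 0.55 and 0.44. These were Psme2, a proteasome activator gene, at 354 against 184 CPM in C1 and 516 against 324 CPM in C2, and the peptide transporter gene Tap1, at 156 against 78.8 CPM and 297 against 188 CPM. H2-K1 stood at 1990 against 1355 CPM in C1 and 3025 against 2422 CPM in C2.

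Other chemokine genes mostly did not pass in both libraries. Of 13 other chemokine genes compared, Ccl5 was the 1 that was higher in both, against 2.29% of all genes compared. It stood at 645 against 226 CPM in C1 and 301 against 102 CPM in C2. Low-UMI barcodes carried Ccl5 at 252 CPM in C1 and 1079 CPM in C2, above the levels in other macrophages. In C2 this was also above the level in Cxcl9 macrophages, and the part of free RNA in Ccl5 was not tested. In C2 several inflammatory chemokine genes were lower in Cxcl9 macrophages, while in C1 they were near equal. Ccl4 stood at 3573 CPM (3495 to 3653) against 6794 CPM (6635 to 6956) in C2 and at 10803 against 11594 CPM in C1. Ccl3 stood at 968 against 2066 CPM in C2 and at 3711 against 4017 CPM in C1. Cxcl2, which draws neutrophils, stood at 881 against 2001 CPM in C2 and at 4196 against 4351 CPM in C1. Il1b, the gene of interleukin 1 beta, followed the same pattern, at 1643 CPM (1590 to 1698) against 3091 CPM (2984 to 3201) in C2 and 3395 against 3368 CPM in C1.

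Il1rn, which encodes the antagonist of interleukin 1, went the other way. It stood at 131 CPM (101 to 168) against 11 CPM (9.47 to 12.6) in C1 and at 82.9 CPM (71.3 to 95.9) against 25.5 CPM (16.6 to 37.3) in C2. A UMI was found in 18% of Cxcl9 macrophages of C1 and 23.9% of those of C2, against 3.84% and 8.8% of other macrophages. Of 10 inflammatory cytokine genes compared, 2 were higher in both libraries, against 2.29% of all genes compared. The list's median log2 ratio was 0.15 in C1 and -0.27 in C2. Il12b, which encodes a subunit of interleukin 12 and is also in the interferon gamma list, stood at 368 CPM (316 to 427) against 79.3 CPM in C1 and at 26 CPM (19.7 to 33.6) against 38.2 CPM in C2. In C1 a single Ccr7 barcode held 48% of its UMIs, and it stood at 198 CPM (159 to 244) without the Ccr7 barcodes.

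Further genes stood high in Cxcl9 macrophages of both libraries. C3, the central complement gene, stood at 77 CPM (54.2 to 106) against 2.19 CPM (1.55 to 3.01) in C1 and at 92 CPM (79.8 to 106) against 18.6 CPM (11.2 to 29.1) in C2. It was detected in 16% and 22.9% of Cxcl9 macrophages, so a minority carried it. It was the 1 of 8 complement genes beyond C1q that was higher in both, against 2.29% of all genes compared. Dnase1l3, a nuclease gene, stood at 95.7 CPM against 4.39 CPM in C1 and at 161 CPM against 73.5 CPM in C2. Calhm6, a gene of the calcium homeostasis modulator family, stood at 87.4 CPM against 19.3 CPM in C1 and at 217 CPM against 51.9 CPM in C2. It was detected in 34% of Cxcl9 macrophages and 11.4% of other macrophages in C1, and in 62.2% and 26.4% in C2 (at equal depth 28.3% and 8.3%, and 52.8% and 21.9%). Lgals3, which encodes galectin 3, stood at 1197 CPM (1101 to 1299) against 292 CPM in C1 and at 684 CPM (650 to 720) against 354 CPM in C2. It was the 1 of 18 lipid and lysosome genes that was higher in both, a count near the share over all genes. Nampt, an enzyme gene of NAD synthesis, stood at 123 against 44.1 CPM in C1, or 81.1 CPM without the Ccr7 barcodes, and at 121 against 51.9 CPM in C2. Aoah, which encodes a lipase that inactivates endotoxin, stood at 35.4 against 12.3 CPM and 83.8 against 38.2 CPM. Hist1h2ap, Ifitm2 and Slfn1 were also among the 15 largest ratios, but their direction turned under other settings.

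Genes lower in both libraries numbered 69, or 1.12% of those compared. Cd14, the co-receptor gene for endotoxin, was the 1 macrophage identity gene among them, at 1247 CPM (1149 to 1351) against 1923 CPM (1903 to 1944) in C1 and at 541 CPM (511 to 573) against 1086 CPM (1023 to 1152) in C2. Slco2b1, a transporter gene, stood at 77 against 154 CPM in C1 and at 20.5 against 54.9 CPM in C2. Abca9, a lipid transporter gene, stood at 27.1 against 56.1 CPM and 28.7 against 55.8 CPM. Gpr183, an oxysterol receptor gene, and Cd33, a sialic acid receptor gene, were lower by factors of 1.59 and 1.76 in C1 and 1.74 and 1.59 in C2. The 18 early response and heat shock genes had 0 past 1.5-fold in both but summed lower, to 39504 against 51585 CPM in C1 and 21581 against 27079 CPM in C2. Jun, a member of that list, stood at 3459 against 5000 CPM in C1 and 1266 against 1813 CPM in C2. The resident and perivascular list had 4 of 16 genes compared and 0 past the fold in both, with sums of 997 against 1235 CPM in C1 and 936 against 947 CPM in C2.

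Within C2 the interferon gamma list stood higher the more Cxcl9 UMIs a barcode held. It summed to 4078 CPM (3955 to 4204) in the 125 macrophages with 0 Cxcl9 UMIs and to 4522 CPM (4294 to 4759) in the 36 with 1. It was 6085 CPM (5831 to 6347) in the 33 with 2 to 3 UMIs, in the 52 with 4 to 9 it was 6284 CPM (6073 to 6500), and in the 80 with 10 or more it was 9894 CPM (9698 to 10093). Barcodes with 1 UMI thus lay nearer to those with 0 than to those with 10 or more. Median depth also differed along these bins, at 7750.0, 8635.5, 10990.0, 9966.5 and 11823.5 UMIs.

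Single genes followed in the same order or against it. Gbp2 stood at 134, 150, 197, 308 and 644 CPM from 0 to 10 or more Cxcl9 UMIs, and Cxcl10 at 253, 254, 447, 580 and 895 CPM. Cd274 stood at 19.6 CPM (12 to 30.3) in the first bin and 132 CPM (110 to 156) in the last. Cd14 ran the other way, at 1086, 833, 701, 629 and 339 CPM. H2-Aa differed little, between 14365 CPM in the bin of 1 UMI and 17270 CPM in the last. Il1rn and Cd40 stood out in the last bin only, Il1rn at 150 CPM (127 to 176) after 46.9 CPM (30.4 to 69.3) and Cd40 at 248 CPM (218 to 281) after 71.3 CPM (50.5 to 97.9). In C1 the bins with Cxcl9 held 19, 16, 5 and 10 barcodes and are not given.

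**Figure D4:**
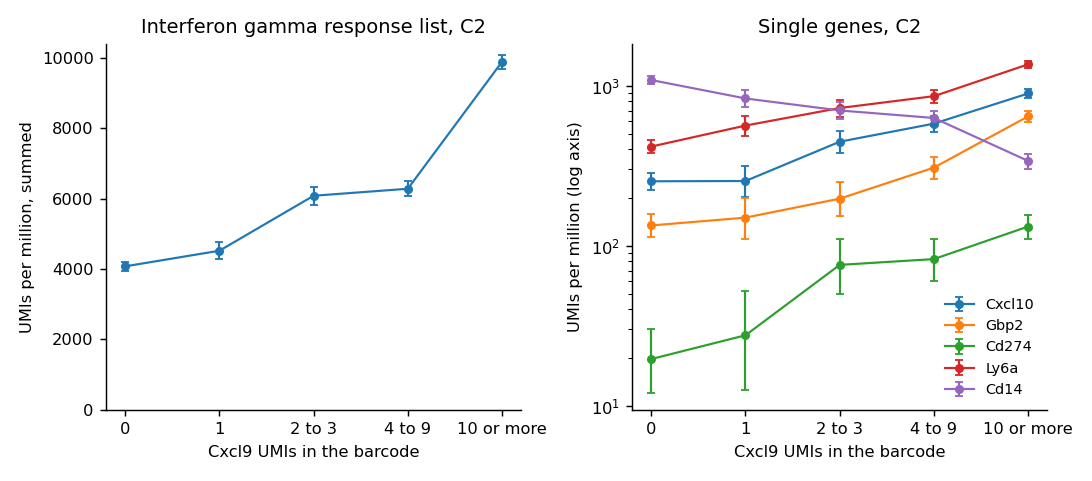
Macrophages of C2 grouped by the number of Cxcl9 UMIs in the barcode (x axis), with the summed level of the interferon gamma response list (left) and the levels of 5 genes (right, log axis) in CPM. Error bars are exact 95% Poisson intervals, and Cd14 is the line that descends, from 1086 to 339.

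Cxcl9 was spread over macrophages with different other markers in C2. Of 43 macrophages there with Mrc1 or Folr2, genes of perivascular and resident macrophages, 31 had Cxcl9, or 72.1% (56.3 to 84.7%), against 170 of 283, or 60.1% (54.1 to 65.8%), of those without, and these intervals overlap. In C1 it was 2 of 120, or 1.67% (0.202 to 5.89%), against 48 of 2324, or 2.07% (1.53 to 2.73%). The 31 barcodes with Mrc1 or Folr2 carried Cxcl9 at 1311 CPM (1199 to 1430) and the 170 without at 2248 CPM (2180 to 2318). They carried Ccl8, a chemokine gene, at 700 CPM (619 to 788) and the 170 without at 254 CPM (232 to 279). Cxcl10 ran the other way, at 301 CPM (248 to 361) and 726 CPM (687 to 766). The interferon gamma list summed to 7418 CPM (7149 to 7695) and 7641 CPM (7515 to 7770), close to each other despite the difference in Cxcl10.

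Monocyte markers were found in another fraction of C2. Ccr2, a receptor gene of recruited monocytes, or Ly6c2, a surface antigen gene of inflammatory monocytes, was found in 50 of the 201, or 24.9% (19.1 to 31.4%), and in 8% (3.9 to 14.2%) of other macrophages. In C1 the shares were 6% (1.25 to 16.5%) and 11.4% (10.2 to 12.8%), in the other order. The 13 monocyte genes summed to 614 CPM (582 to 648) in Cxcl9 macrophages and 197 CPM (171 to 226) in other macrophages of C2, and to 137 CPM (106 to 175) and 114 CPM (109 to 119) in C1. Ly6c2 itself was found in 10.9% of the Cxcl9 macrophages and stood at 151 CPM, with 32.1 CPM in low-UMI barcodes. Barcodes with Ccr2 or Ly6c2 had Cxcl9 at 2020 CPM (1914 to 2131) and those without at 2111 CPM (2039 to 2185), while Cxcl10 stood at 265 CPM (227 to 306) and 820 CPM (776 to 867). Their median depth was 14525.5 UMIs against 9838.0. Lyz2, the lysozyme gene, also stood higher in Cxcl9 macrophages of C2, at 4208 against 2031 CPM, and not in those of C1, at 1505 against 1730 CPM.

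Clec9a and Xcr1, known as genes of cross-presenting dendritic cells, were detected in macrophages of C2. Clec9a was found in 43.8% of Cxcl9 macrophages and 29.6% of other macrophages, and Xcr1 in 30.8% and 15.2%, at levels of 62.4 and 56 CPM in the Cxcl9 macrophages. At equal depth Clec9a was found in 26.1% and 22.9%, and Xcr1 in 20.6% and 15.6%, smaller gaps. Low-UMI barcodes of C2 carried them at 1.95 and 1.34 CPM, below the macrophages, and Flt3 and Zbtb46 were found in 0.995% and 1.49% of the Cxcl9 macrophages. In C1 Xcr1 was found in 2% of Cxcl9 macrophages and Clec9a in 24%.

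Between libraries, 357 of 5576 genes compared (6.4%) were at least 2-fold higher in the Cxcl9 macrophages of C2 and 159 (2.85%) in those of C1. Of 31 interferon gamma response genes compared, 19 were higher in C2 and 1, Il12b, in C1, with a median log2 ratio of C2 over C1 of 1.16 against 0.08 over all genes. The same median in other macrophages was 1.46, so the list stood higher in C2 whether or not a macrophage had Cxcl9. Of the 10 largest ratios, Gbp2b, a guanylate binding protein gene, had 0 UMIs in C1 and stood at 116 CPM (102 to 131) in C2. Its ratio was 18.6 when 3 counts are set for C1, which is not a bound. Iigp1, an immunity-related GTPase gene, stood at 14.6 CPM (5.86 to 30) in C1 and 223 CPM (203 to 243) in C2. Ccl8 stood at 20.8 CPM (9.98 to 38.3) and 333 CPM (309 to 358), and in other macrophages at 1.91 and 125 CPM. Cfb, which encodes complement factor B, stood at 18.7 CPM (8.57 to 35.6) and 181 CPM (164 to 200).

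Mrc1, Eng, Xcr1, Pira2, Ccr2 and Gm36161 complete the 10 genes. Each had between 1 and 6 UMIs in C1, which leaves their ratios loose, and without the Ccr7 barcodes Xcr1 had 0 and Eng stood at 2.25 CPM there. Mrc1, the mannose receptor gene, stood at 2.08 CPM (0.0527 to 11.6) in C1 and 61.9 CPM (52 to 73.3) in C2. Eng, which encodes endoglin, stood at 4.16 CPM (0.504 to 15) and 60.6 CPM (50.7 to 71.8). Ccr2 stood at 12.5 CPM (4.58 to 27.2) and 134 CPM (119 to 150).

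Genes higher in C1 included the heat shock genes Hspa1a and Hspa1b, at 1230 and 928 CPM in C1 and 194 and 84.7 CPM in C2. The early response and heat shock list had 11 of 18 genes 2-fold higher in C1 and 0 in C2, with a median log2 ratio of -1.26 in Cxcl9 macrophages and -1.20 in other macrophages. Dcstamp, a gene needed for the fusion of osteoclasts and macrophages, stood at 269 CPM (224 to 319) in C1 and 41.9 CPM (33.8 to 51.4) in C2. Itgb8, an integrin gene, stood at 131 CPM (101 to 168) and 21 CPM (15.3 to 27.9). Ccn1, Mmp12 and Nr4a3 had 48.7%, 52.2% and 82.5% of their C1 UMIs in 1 barcode, and Nr4a3 stood at 22.5 CPM in C1 without the Ccr7 barcodes, against 21 CPM in C2. The neutrophil chemokine gene Cxcl1 stood at 150 CPM (117 to 189) in C1 and 27.8 CPM (21.3 to 35.7) in C2. Of the type I interferon list, 5 of 25 genes were higher in C1 and 0 in C2, and Rsad2 was the farthest apart at 5.29-fold.

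**Figure D5:**
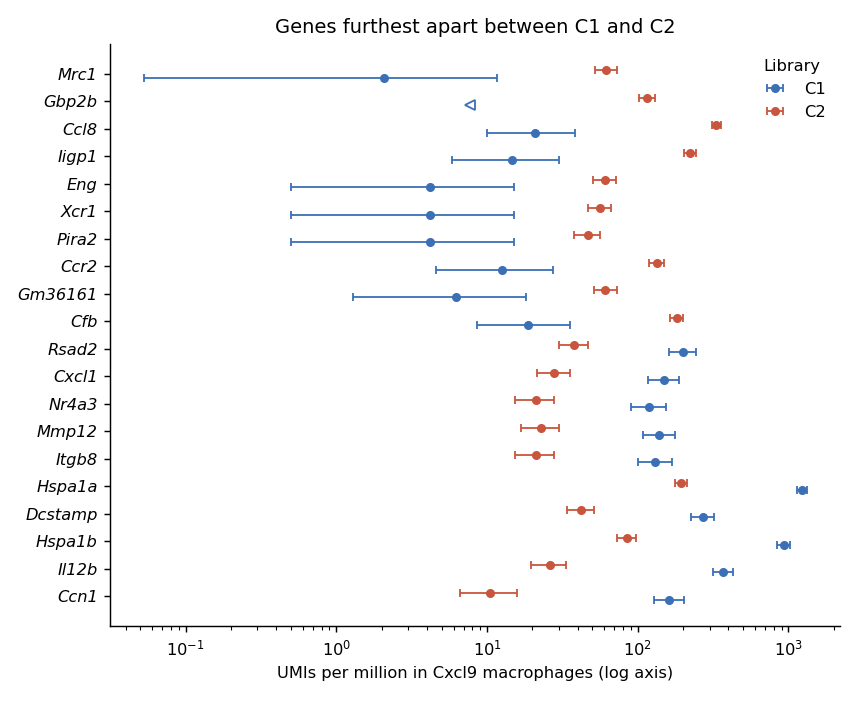
Levels in the Cxcl9 macrophages of C1 (blue) and C2 (red), in CPM on a log axis, of the 10 genes with the largest and the 10 with the smallest ratio of C2 over C1. Bars are exact 95% Poisson intervals, and the open triangle is the upper bound for Gbp2b, which had 0 UMIs in C1.

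The genes of interferon gamma and of the CXCL9 receptor were read in T and NK cell barcodes. Ifng, which encodes interferon gamma, stood in T cell barcodes at 271 CPM (258 to 285) in C1, 262 CPM (255 to 269) in C2, 32 CPM (30.6 to 33.4) in C3 and 5.8 CPM (4.88 to 6.83) in C4. Cxcr3 stood there at 149 CPM (139 to 159) in C1, between 193 and 205 CPM by its interval in C2, at 185 CPM (182 to 189) in C3 and at 33.5 CPM (31.2 to 35.8) in C4. The intervals for Ifng in T cell barcodes overlapped between C1 and C2, and its part in the share of macrophages with Cxcl9 was not tested. T cell barcodes outnumbered macrophages in C2, 3529 to 326, and not in C1, 908 to 2444. In NK barcodes Ifng stood at 67 CPM (60.8 to 73.6) in C1 and 50.1 CPM (40.4 to 61.4) in C2. In the 20 NK barcodes of C4 it stood higher, at 334 CPM (235 to 461), and C3 had under 20 NK barcodes. Cxcr3 stood in NK barcodes at 64.6 CPM (58.5 to 71.2) in C1, 90 CPM (76.8 to 105) in C2 and 117 CPM (62.5 to 201) in C4.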

How the data were processed

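The authors deposited 4 matrices of whole-number UMI counts per gene and barcode, not normalized. The matrix headers name Cell Ranger 4. The submitters' processing notes list mm10, STAR 2.7.10a and a Cell Ranger of version 6.1.2. Per the labels' protocols the libraries followed BD Rhapsody. The design text names 10x, and the barcodes have 16 bases. Total counts were 48439860, 44798843, 77819179 and 37902916 UMIs in C1 to C4, with 5616, 5067, 8532 and 5957 kept barcodes.

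UMIs were summed over barcodes and given per 1000000 UMIs of the set. Levels carry exact Poisson and shares Clopper-Pearson intervals at 95%, and a count of 0 was set to 3 counts in ratios. Genes needed at least 50 UMIs over both sets in each library (over both libraries for C2 over C1) and were called at 1.5-fold in both libraries, or at 2-fold between libraries. Fold calls were tested on simulated pooled Poisson counts, which lack the spread between barcodes seen here. The interval formulas were checked against known values only. Doublets were not removed: Scrublet in scanpy 1.11.5 called 2.96% of C1 and 1.95% of C4, but 0 of C2 and 0.0234% of C3, where it is taken to have failed. T cell barcodes had at least 2 Cd3 UMIs, no Cd79a and under 2 C1q UMIs; NK barcodes had Ncr1, no Cd3 or Cd79a, and under 2 C1q. Genes named were, in each of 24 lists, up to 5 of highest CPM and the largest and smallest ratio of one direction, plus the 15 largest and 15 smallest ratios in both libraries and the 10 at each end of C2 over C1 with at least 100 UMIs, leaving out there the rule genes, mitochondrial and receptor segment genes and genes higher in low-UMI barcodes than in the macrophages of either library. Adgre1, Fcgr1, Flt3, Zbtb46, Ccr7, Cxcr3, Ifng, Folr2, Ifit1, Oasl1, Usp18 and Zbp1 were named outside that rule, after their values were seen. The same holds for Mertk, Itgam and Maf. The members and lists were chosen with earlier results of these data known. Python 3.11.15, numpy 2.4.6, scipy 1.17.1, pandas 2.3.3 and matplotlib 3.10.9 were used.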

Additional observations from a re-analysis of the deposited data

Results flagged for a closer look

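Signal of Cxcl9 macrophages or of Cxcl9 also stood in data that the comparisons do not use. C3 held 9 barcodes that met the rule, above the 3 counts set for a count of 0 but too few for values. Outside the macrophages, a Cxcl9 UMI was found in 17 barcodes of C1 and 190 of C2. The same held for 59 barcodes of C3 and 5 of C4. Of these, 12, 134, 22 and 1 also held a Cd3 UMI, and the part of free RNA and of doublets in them was not tested. Among dendritic barcodes, those with Flt3 or Zbtb46, no Cd3 or Cd79a and under 2 C1q UMIs, a Cxcl9 UMI was found in 1 of 142 in C1, 13 of 75 in C2 (17.3%, 9.57 to 27.8%), 13 of 63 in C3 (20.6%, 11.5 to 32.7%) and 3 of 36 in C4. In C3, 11 of 7389 T cell barcodes had one, or 0.149%, and the interval of that share lay below that of its dendritic barcodes. The level of Cxcl9 in dendritic barcodes was 171 CPM (144 to 202) in C2 and 152 CPM (126 to 182) in C3, against 2083 CPM in the Cxcl9 macrophages of C2.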

How the results depend on the processing

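No call turned direction for the share or the interferon gamma list under the alternatives tried. With at least 2 Cxcl9 UMIs the share was 1.27% in C1 and 50.6% in C2. The list's ratio in C1 was 2.81 with at least 2 Cxcl9 UMIs, 2.57 without further T, B or NK genes, 2.89 at middle depth, 2.7 after thinning, 2.5 as a mean over barcodes, 2.54 against macrophages with Mrc1 or Folr2, 2.16 without Cxcl10 and 2.11 without Ccr7 barcodes, the last chosen after seeing the data. In C2 it was 2 with at least 2 Cxcl9 UMIs, 1.93 without the further genes, 2.08 at middle depth and 2.04 against macrophages without Mrc1 and Folr2. The comparison with Mrc1 or Folr2 macrophages could not be made in C2, with 12 such barcodes. The 141 genes higher in both became 82 after thinning, 51 and 626 with at least 200 and 1 UMIs, and 41 at 2-fold. The 69 lower became 37 after thinning, 40 at middle depth, 5 and 313 with at least 200 and 1 UMIs, and 3 at 2-fold. Between libraries the 357 higher in C2 became 207 after thinning and 97 at 3-fold, and the 159 higher in C1 became 101 and 49. Stricter settings test or call fewer genes by construction, and other causes were not tested. Of 559 values for 43 genes called, 534 stayed within 1.5 times and 6 turned direction: at middle depth Hist1h2ap (0.505), Ifitm2 (0.848) and Hpgd (1.12), and Slfn1 at 0.885 as a mean over barcodes, 0.407 without the barcode of most Cxcl9 and 0.414 without Ccr7 barcodes, the last pair chosen after seeing the data. Of 240 values for 20 genes between libraries, 209 stayed and 1 turned, Nr4a3 at 1.76 at middle depth. The 50 barcodes of C1 limit every value there. No paired analysis was possible because no label ties the libraries to samples and each is single.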
